A study of Mus musculus with 6 samples.

Results

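The protein kinase C genes described here are Prkca and Prkcb (conventional isoforms), Prkcd, Prkce, Prkch and Prkcq (the nPKC isoforms, which need no calcium), and Prkci and Prkcz (atypical isoforms). They are 8 of 21911 protein-coding genes, taken by name. A promoter was called marked when an H3K4me3 peak lay within 1 kb of any start of an annotated transcript of the gene. H3K4me3, trimethylated lysine 4 of histone H3, is a mark found around active transcription starts, and it was mapped by ChIP-Seq in STHdh cells, conditionally immortalised striatal progenitor cells of mouse (strain C57BL/6). The study had 6 peak lists, 1 for each condition. Q7SST was the wild type line (STHdhQ7 cells, genotype label STHdh7) with vehicle. Q111SST was the mutant line (STHdhQ111, which carries an expanded glutamine tract in huntingtin) with vehicle. The other 4 lists came from the mutant line given 10 uM of cyproheptadine, loxapine, diacylglycerol kinase inhibitor II (DKI) or meclizine. All cells, vehicle controls included, were kept without serum for 24 h. Each genotype was represented by 1 cell line, so that genotype and line cannot be told apart.

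Protein kinase C enzymes are serine/threonine kinases of lipid signalling. When a phospholipase C splits a membrane lipid, diacylglycerol stays in the membrane and binds the C1 domains of the conventional and nPKC isoforms. The conventional isoforms also need calcium, which binds their C2 domain, whereas the nPKC isoforms do not. The atypical isoforms respond to neither and work with polarity and scaffold proteins. Diacylglycerol kinases remove diacylglycerol by phosphorylating it, and DKI inhibits these enzymes. The product of Prkcb is known from neurons and lymphocytes, and that of Prkcq mainly from T cells.

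The promoters of 5 of the 8 genes, Prkca, Prkcd, Prkce, Prkci and Prkcz, were marked in all 6 lists, as were 53.5% of all protein-coding promoters. Prkcb and Prkcq were marked in none, as were 37.0% of all promoters. Prkch was marked in Q7SST, Q111SST and meclizine and in none of cyproheptadine, loxapine and DKI. By list, the number of marked members was 6 of 8 in Q7SST (59.9% of all promoters), 6 in Q111SST (58.4%), 5 in cyproheptadine (55.4%), 5 in loxapine (58.1%), 5 in DKI (55.8%) and 6 in meclizine (58.6%). Every condition rested on a single list, which left no spread among replicates to test against, and each difference below is a description of these lists. When a peak had to cover a start rather than lie within 1 kb of it, 4 members were marked in Q7SST (53.0% of all promoters), 6 in Q111SST (51.5%), 2 in cyproheptadine (45.4%), 2 in loxapine (48.7%), 4 in DKI (47.2%) and 5 in meclizine (52.4%).

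Strength was expressed as a percentile, the rank of the score of the strongest peak in the window among all peaks of the same list. Prkci had the strongest peak of the family in each of the 6 lists, and Prkcd and Prkch were at the weak end. The median percentile of the marked members was below that of all marked promoters in each list. It was 51.1 against 80.4 in Q7SST, 71.7 against 82.6 in Q111SST, 74.9 against 79.5 in cyproheptadine, 73.1 against 83.0 in loxapine, 64.1 against 76.3 in DKI and 70.6 against 80.3 in meclizine. The members counted differ between lists, since Prkch enters the median in Q7SST, Q111SST and meclizine only. Prkci was above the median of all marked promoters in every list. Prkce was above it in Q7SST and Prkca in loxapine, and every other marked member was at or below it in its list. Peak width did not follow this order. The members' median width was above that of all marked promoters in 5 of the 6 lists, for example 2190 bp against 1795 bp in Q111SST, and was 1528 bp against 1546 bp in cyproheptadine.

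**Figure D1:**
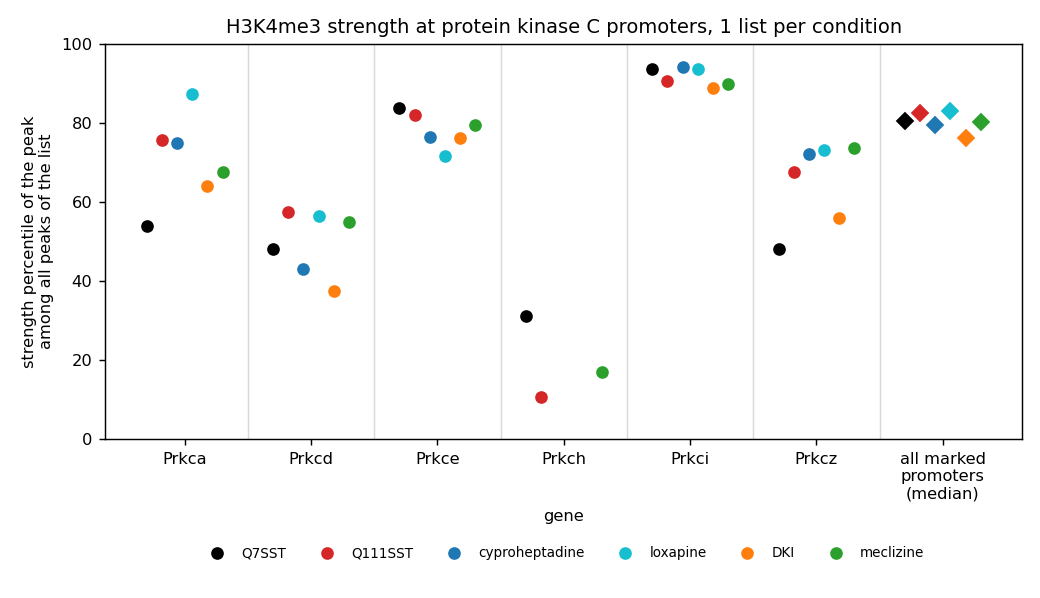
Strength percentile of the strongest H3K4me3 peak within 1 kb of a transcript start (y axis, 0 to 100) for the 6 protein kinase C genes marked in at least 1 list. Each circle is 1 list and the diamonds at the right are the medians over all marked promoters of the same lists. Prkci lies between 88.8 and 94.3 in all 6 lists, Prkca spans 53.9 to 87.3, and Prkch has points for 3 lists only.

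Prkca encodes protein kinase C alpha, a broadly expressed conventional isoform. The gene lies on the minus strand at chr11:107933387-108343928 (GRCm38) and spans 411 kb. Its percentile was 53.9 in Q7SST, 75.8 in Q111SST, 74.9 in cyproheptadine, 87.3 in loxapine, 64.1 in DKI and 67.5 in meclizine. Q7SST was the lowest list and loxapine the highest, a range of 33.4 points, the widest of the 5 members marked throughout. The peak was broad, from 1825 bp in loxapine to 3139 bp in Q111SST. In Q111SST its width was at the 95.1 percentile of all marked promoters.

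The Prkca peak lay mostly inside the gene. In Q111SST it reached from 490 bp upstream to 2648 bp downstream of the first start, which is the first start of a protein-coding transcript in the direction of transcription. It covered that start in 5 lists. In loxapine the peak began 952 bp downstream and ended 2776 bp downstream, so that the first start lay outside it although its percentile was the highest there. An annotated transcript of Apoh, the gene of the plasma protein apolipoprotein H, starts on the opposite strand 574 bp inside Prkca, and the peak was counted for both genes in all 6 lists. The contributions of the pair to this peak cannot be told apart. Apart from Apoh, the promoters whose percentiles over the 6 lists were most like those of Prkca were Huwe1, with a mean absolute difference of 2.86 points, and Marveld1, with 3.22 points, among 11713 promoters marked in all 6 lists.

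Prkcb, the other conventional isoform, had no peak within 1 kb of any of its 8 annotated starts (chr7:122288751-122634402, plus strand). The nearest peak was 30726 bp to 30935 bp from a start in Q7SST, loxapine and meclizine and 128078 bp to 128694 bp in the other lists. In Q7SST, loxapine and meclizine it was an intronic peak 273.4 kb downstream of the first protein-coding start, at percentiles 9.57, 39.5 and 4.42. The start nearest to that peak was an internal one, 304624 bp downstream, with no protein-coding transcript. The promoters of Prkca and Prkcb are compared here because they carry opposite outcomes in the same class of enzyme. Over the 1 kb centred on the first protein-coding start both were rich in CpG dinucleotides, the sites of DNA methylation, with 94 in Prkca and 91 in Prkcb. They differed in the 250 bases before the first annotated start of any transcript, where Prkca held 31 CpG and Prkcb held 3. In Prkcb this start lies upstream of the first protein-coding start, so its 250 bases are farther from the CpG-rich stretch than those of Prkca. These windows are printed 5′ to 3′ along the gene's strand, with every CpG in capitals, from chr11:108343929-108344178 (minus strand) and chr7:122288501-122288750 (plus strand) of GRCm38 as given by RefSeq.
Prkca: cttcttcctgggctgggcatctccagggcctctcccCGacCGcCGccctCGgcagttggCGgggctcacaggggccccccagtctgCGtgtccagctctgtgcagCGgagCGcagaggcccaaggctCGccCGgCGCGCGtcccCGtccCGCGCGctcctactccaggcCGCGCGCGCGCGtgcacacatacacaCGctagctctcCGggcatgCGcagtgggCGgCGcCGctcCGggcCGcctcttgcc
Prkcb: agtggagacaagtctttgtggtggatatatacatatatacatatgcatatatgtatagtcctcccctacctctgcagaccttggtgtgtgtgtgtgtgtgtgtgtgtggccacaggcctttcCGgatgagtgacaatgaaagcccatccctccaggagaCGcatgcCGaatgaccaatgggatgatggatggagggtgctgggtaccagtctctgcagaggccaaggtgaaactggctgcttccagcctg

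Many peaks also lay inside Prkca. Merged over the lists they formed 26 regions more than 1 kb from any start of the gene, 7 of them present in all 6 lists and 12 in a single list. The number of peaks ran from 8 in cyproheptadine to 19 in loxapine. The strongest peak inside the gene had a higher score than the promoter peak in each of the 6 lists. This held for 2.32% of the 11713 genes marked in all 6 lists, and for 9.53% of the 1574 such genes that span 100 kb or more. In 5 of the lists that peak was an intronic region at chr11:108214231-108215988, 128.8 kb downstream of the first start. Its percentile was 93.0 in Q7SST, 95.9 in Q111SST, 81.3 in cyproheptadine, 93.0 in loxapine, 96.3 in DKI and 97.5 in meclizine. In cyproheptadine another intronic region, 61.0 kb downstream, was slightly stronger at 82.6. No annotated start of another gene lay within 1 kb of either region. The region nearest to the promoter, 7.3 kb downstream, had the opposite order to the promoter peak in the vehicle lists, with 80.8 in Q7SST and 59.6 in Q111SST, and was at 12.3 in cyproheptadine.

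**Figure D2:**
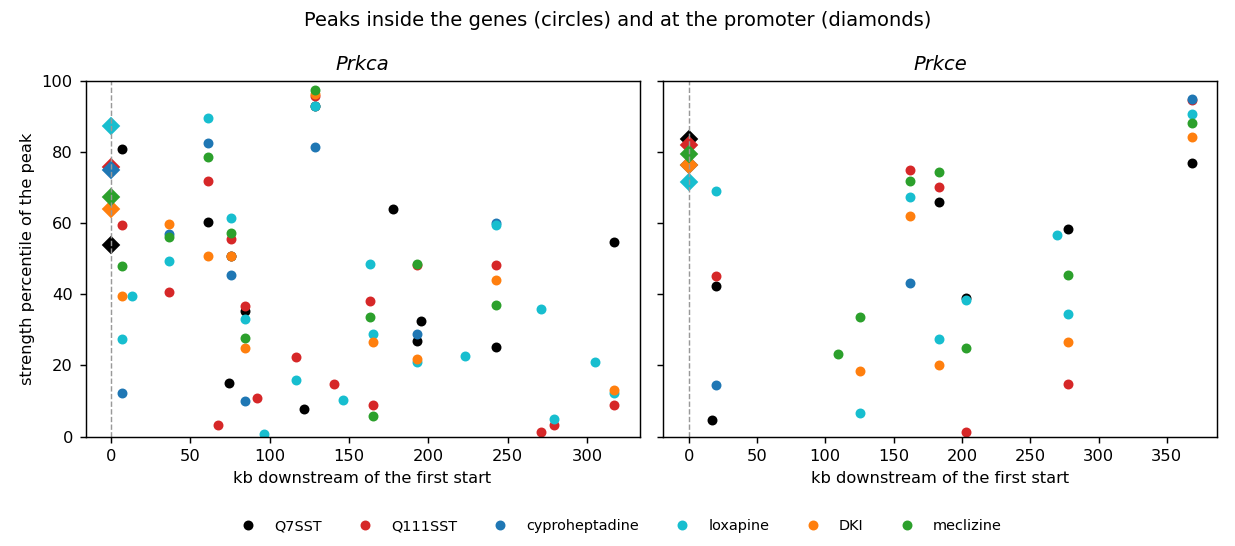
Strength percentile (y axis) of H3K4me3 peaks inside Prkca and Prkce against distance downstream of the first start in kb (x axis). Circles are peaks in intragenic regions and diamonds at 0 are promoter peaks, coloured by list. The Prkca region at 128.8 kb lies above the promoter peak of its own list in 6 of 6 lists, and the Prkce region at 368.6 kb in 5 of 6.

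Prkce, which encodes the nPKC isoform epsilon, had the second strongest promoter peak of the family in Q7SST, Q111SST, cyproheptadine, DKI and meclizine. The gene lies at chr17:86167785-86657919 on the plus strand. Its percentile was 83.8 in Q7SST, 82.0 in Q111SST, 76.5 in cyproheptadine, 71.7 in loxapine, 76.3 in DKI and 79.5 in meclizine. The range was 12.1 points, and loxapine was the lowest list. Ranked among promoters marked in all 6 lists, the lowest was again loxapine, at 23.6, and the other lists lay between 42.2 and 53.5.

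The Prkce peak lay on the upstream side. It began between 1566 bp and 1891 bp upstream of the first start in all 6 lists. It ran across the start in Q111SST, to 428 bp downstream, and in meclizine, to 664 bp downstream. In the remaining lists it stopped between 311 bp and 345 bp upstream. Another, weak peak lay beyond the start in Q7SST, at percentile 6.14, and in loxapine, at percentile 2.07, with gaps of 796 bp and 980 bp that held the start. The width of the main peak ran from 1222 bp in cyproheptadine to 2460 bp in meclizine. With peaks within 1 kb joined, it became 3104 bp in Q7SST and 2960 bp in loxapine, wider than in the other lists.

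Inside Prkce there were 10 regions with a peak. A single one, intronic at chr17:86535956-86536757 and 368.6 kb from the first start, was present in all 6 lists. Its percentile was 76.8 in Q7SST, 94.6 in Q111SST, 94.8 in cyproheptadine, 90.6 in loxapine, 84.4 in DKI and 88.3 in meclizine. It was stronger than the promoter peak in the 5 mutant lists and weaker than it in the wild type list.

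Prkcd, the gene of the nPKC isoform delta (chr14:30595354-30626210, minus strand), had a weak and steadily placed peak. Its percentile was 48.2 in Q7SST, 57.6 in Q111SST, 43.1 in cyproheptadine, 56.6 in loxapine, 37.4 in DKI and 54.9 in meclizine. Among the 11713 promoters marked in all 6 lists its rank lay between the 4.82 and the 8.41 percentile, which puts it among the weakest in every list. The peak covered the first start in all 6 lists, beginning 327 bp to 522 bp upstream and ending 1038 bp downstream in DKI and 1516 bp to 1746 bp downstream in the others. Its width of 1429 bp to 2120 bp was ordinary, at the 48.0 to the 74.9 percentile of marked promoters. None of its 5 groups of internal starts was marked, and no peak lay inside the gene.

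Prkch, the gene of the nPKC isoform eta (chr12:73584796-73778185, plus strand), had the weakest peaks of the family. Its percentile was 31.3 in Q7SST, 10.8 in Q111SST and 17.1 in meclizine. The peak covered the first start in Q7SST and Q111SST with widths of 1280 bp and 1253 bp. In meclizine it was 203 bp wide and ended 121 bp upstream of the start. In cyproheptadine, loxapine and DKI the nearest peak was 19484 bp to 19695 bp away. The same presence over the lists was found for 87 of 21911 genes.

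The strength of Prkch in Q111SST was like that of other promoters absent from the same lists. Of 12790 promoters marked in Q111SST, 215 were marked in none of cyproheptadine, loxapine and DKI, and their median percentile in Q111SST was 12.9. Their median width was 447 bp, against 1253 bp for Prkch. When each list was cut to its strongest 30758 peaks, the length of the shortest, Prkch was not marked in Q111SST or meclizine and was still marked in Q7SST, at percentile 14.2. Loxapine, which lacked Prkch at full length, was the longest list, with 45564 peaks.

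Prkcq, the gene of the nPKC isoform theta (chr2:11172108-11301222, plus strand), was marked in no list. The nearest peak was 19962 bp to 20199 bp away in Q111SST, loxapine and meclizine, where an intronic region held a peak at percentiles 10.8, 47.7 and 24.9. An annotated start of Gm37520, a gene model of unsettled status, lay within 1 kb of that region. In the other lists the nearest peak was at least 124547 bp away and the gene held none. The 1 kb centred on its first start held 54 CpG, fewer than in the other members with sequence, and the 250 bases before its first start, shown for comparison with Prkcb, held 6 (chr2:11171858-11172107, plus strand, CpG in capitals).
Prkcq: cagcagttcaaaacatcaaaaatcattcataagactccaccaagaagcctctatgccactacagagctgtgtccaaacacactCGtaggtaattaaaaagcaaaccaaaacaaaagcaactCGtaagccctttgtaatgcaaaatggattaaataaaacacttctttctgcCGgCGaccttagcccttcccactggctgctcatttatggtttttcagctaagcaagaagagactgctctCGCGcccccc

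**Figure D3:**
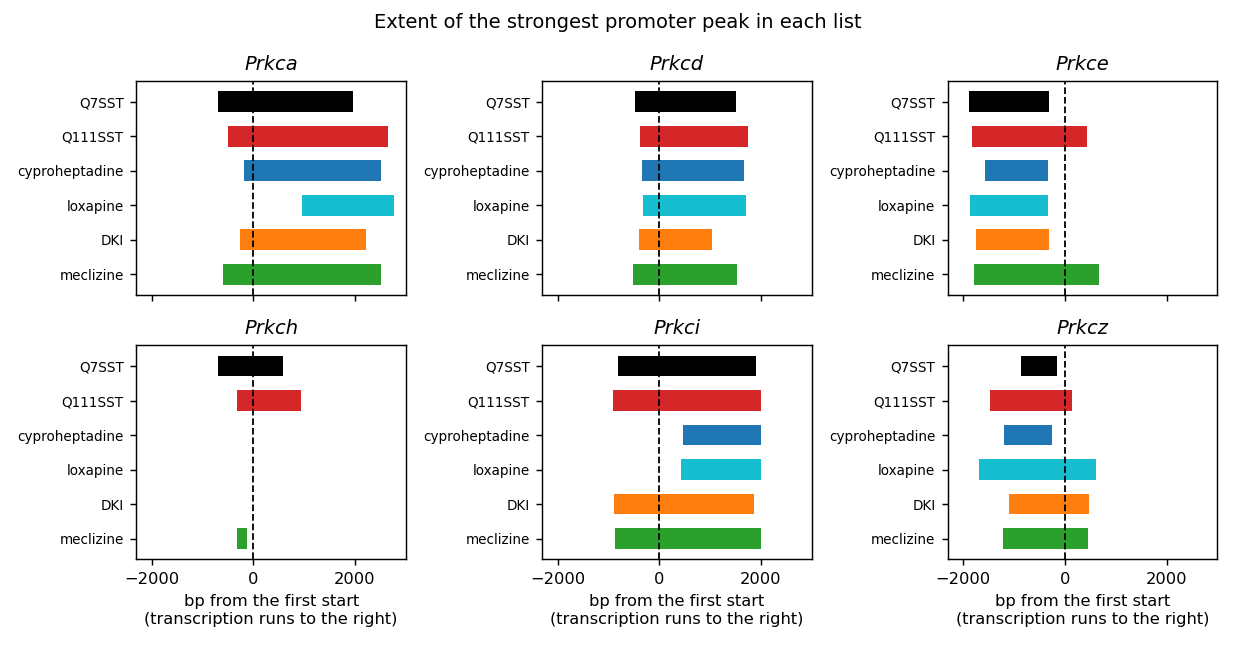
Extent of the strongest promoter peak in each list, in bp from the first protein-coding start (dashed line at 0, transcription to the right), for the 6 genes with a marked promoter. Prkcd covers the start in all 6 lists, Prkce in 2, Prkca in 5, Prkci in 4, Prkcz in 4, and Prkch in 2 of the 3 lists that hold its peak.

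Prkci, the gene of the atypical isoform iota, a partner of the Par polarity proteins, had the strongest peak of the family. The gene lies at chr3:30995747-31052959 on the plus strand. Its percentile was 93.8 in Q7SST, 90.7 in Q111SST, 94.3 in cyproheptadine, 93.6 in loxapine, 88.8 in DKI and 89.9 in meclizine. The lists differed by 5.47 points at most, the narrowest range on this scale of the 5 members marked throughout. Among the promoters marked in all 6 lists its rank ran from the 70.1 percentile in Q111SST to the 85.1 percentile in cyproheptadine.

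The outline of the Prkci peak took 2 forms. In Q7SST, Q111SST, DKI and meclizine it was a single peak of 2710 bp to 2922 bp over the first start. In cyproheptadine it was split into a peak of 440 bp, at percentile 88.9, and a peak of 1528 bp, at percentile 94.3, with a gap of 827 bp that held the start. Loxapine gave the same arrangement, with peaks of 539 bp and 1580 bp at percentiles 87.8 and 93.6 and a gap of 787 bp. When peaks within 1 kb were joined, the widths became 2795 bp in cyproheptadine and 2906 bp in loxapine, inside the range of the other lists. Inside Prkci there were 4 regions with a peak, the strongest an intronic one 27.3 kb downstream, present in all 6 lists at percentiles of 68.0 to 77.1. A pair of internal starts 42703 bp downstream was marked in cyproheptadine only, at percentile 33.5. The 250 bases before the start of this strongest member held 13 CpG, marked here in capitals (chr3:30995497-30995746, plus strand).
Prkci: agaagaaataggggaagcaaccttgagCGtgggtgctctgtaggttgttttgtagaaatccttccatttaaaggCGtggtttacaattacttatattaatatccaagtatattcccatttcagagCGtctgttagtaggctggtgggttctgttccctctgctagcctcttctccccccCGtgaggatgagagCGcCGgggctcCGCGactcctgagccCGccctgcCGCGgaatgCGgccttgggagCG

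Prkcz encodes the atypical isoform zeta and, from an internal promoter, the brain form known as PKM zeta. The gene lies at chr4:155260129-155361361 on the minus strand. Its percentile was 48.2 in Q7SST, 67.6 in Q111SST, 72.1 in cyproheptadine, 73.1 in loxapine, 55.9 in DKI and 73.7 in meclizine. Q7SST and DKI were the low lists, and the range was 25.5 points. Like that of Prkce the peak was mainly upstream. It ended before the first start in Q7SST, where it was 710 bp wide, and in cyproheptadine, where it was 947 bp wide, and ended 131 bp to 611 bp beyond it in the other lists. A group of 5 starts 15589 bp downstream was marked in no list. A single start 93026 bp downstream was near a weak peak in Q7SST and Q111SST, at percentiles 22.1 and 3.23.

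The 250 bases before the first start of Prkcz held 25 CpG and 5 copies of the CCAAT box, read as CCAAT on either strand. These copies are in capitals, and all 5 read as ATTGG along the gene's strand (chr4:155361362-155361611, minus strand). At least 1 CCAAT box occurred in 36.0% of 16503 promoters of the same length, and 5 or more in 0.303%. The box is shown as a feature of the sequence, and nothing in these data measured a factor bound to it.
Prkcz: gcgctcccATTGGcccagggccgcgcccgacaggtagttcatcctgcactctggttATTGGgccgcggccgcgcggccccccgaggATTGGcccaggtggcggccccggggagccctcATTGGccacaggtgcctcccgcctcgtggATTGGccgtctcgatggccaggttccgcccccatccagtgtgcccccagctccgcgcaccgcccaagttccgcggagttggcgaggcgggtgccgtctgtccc

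The first comparison was between genotypes with vehicle. Relative to Q111SST, Q7SST had 0 protein kinase C promoters lost (3.56% of all promoters marked in Q111SST) and 0 gained (8.64% of those not marked there). Only Prkcb and Prkcq were unmarked in the full Q111SST list, so only they could be gained, here and in the comparisons below. The percentile was at least 10 points higher for 1 member, Prkch (8.85% of all promoters marked in both lists), and at least 10 points lower for 2, Prkca and Prkcz (13.0%). Prkch was 20.4 points higher. Prkca was 21.9 points lower in Q7SST, and only 3.04% of promoters had a more negative difference. Prkcz was 19.3 points lower, and 4.09% had a more negative difference. The remaining members, Prkcd, Prkce and Prkci, stayed within 10 points. In lists cut to equal size Prkca and Prkcz kept these directions, at 42.5 against 68.3 and 35.4 against 57.4, while Prkch was marked in Q7SST alone and so counted as 1 gained (8.25% of promoters not marked in Q111SST). Lost in Q7SST when a peak had to cover a start were 2 members, Prkce and Prkcz (5.28%). Ranked among the 11713 promoters marked in all 6 lists, Prkca was 22.5 points and Prkcz 10.7 points lower in Q7SST (21.2% of these promoters at least 10 points lower), and Prkci was 12.2 points higher (21.3% higher).

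The other comparisons set each compound beside the same Q111SST list, so their values are not independent of one another. Cyproheptadine, an antihistamine and serotonin receptor blocker, had 1 member lost, Prkch (5.70% of all promoters), and 0 gained (0.735%). It had 0 members at least 10 points higher (3.48%) and 1 lower, Prkcd, at 43.1 against 57.6 (25.9%). Prkca was at 74.9 against 75.8, the smallest difference among the members in this comparison. In lists cut to equal size Prkcd, at 37.6 against 44.3, was within 10 points, and Prkcz, at 69.4 against 57.4, was at least 10 points higher (10.1% of all promoters), while 0 members were lost (3.58%). Prkch was not marked in the cut Q111SST list, so that its loss could not be counted there. When a peak had to cover a start, 4 members, Prkce, Prkch, Prkci and Prkcz, were lost in cyproheptadine (12.6%). Ranked among promoters marked in all 6 lists, Prkcd was 0.401 points lower, and Prkci and Prkcz were 15.0 and 18.3 points higher (21.4% of these promoters at least 10 points higher).

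Loxapine, an antipsychotic, also had 1 member lost, Prkch (2.12%), and 0 gained (2.43%). Prkca was the 1 member at least 10 points higher (7.10%), at 87.3 against 75.8. Prkce was the 1 member at least 10 points lower (9.41%), at 71.7 against 82.0. For Prkca 94.5% of promoters, and for Prkce 8.95%, had a lower difference. In lists cut to equal size 0 members were lost (3.36%), but Prkch was not marked in the cut Q111SST list and so could not be lost. In the cut lists Prkca was at 81.1 against 68.3 (6.90% of all promoters at least 10 points higher). Prkce was at 58.1 against 76.3 there (22.3% at least 10 points lower). Ranked among promoters marked in all 6 lists, Prkca was 28.2 points and Prkcz 10.3 points higher (19.3% at least 10 points higher), and Prkce was 20.4 points lower (20.3% lower). When a peak had to cover a start, neither Prkca nor Prkce was marked in loxapine, neither difference could be taken, and 4 members, Prkca, Prkce, Prkch and Prkci, were lost (7.62%).

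DKI is the compound whose target lies next to the kinases in the pathway, since diacylglycerol is the activator of the conventional and nPKC isoforms. Here too 1 member was lost, Prkch (4.94%), and 0 were gained (0.647%). At least 10 points higher were 0 members (3.55%), and 3 were at least 10 points lower, Prkca, Prkcd and Prkcz, against 38.8% of all promoters. The differences were 11.7 points for Prkca, 20.2 for Prkcd and 11.6 for Prkcz. The DKI list was shifted as a whole. The median over 12158 promoters was -6.57 points, and relative to it Prkca was 5.15 points, Prkcd 13.6 points and Prkcz 5.05 points lower. Ranked only among the promoters marked in all 6 lists, Prkca was 0.849 points lower in DKI than in Q111SST, Prkcd 0.598 points lower and Prkcz 3.02 points higher. DKI was also the shortest list, and in lists cut to equal size the members at least 10 points lower numbered 0 (21.5% of all promoters) and those lost numbered 0 (2.65%). Prkch was not marked in Q111SST after the cut, so that its loss could not be counted. When a peak had to cover a start, 2 members were lost in DKI, Prkce and Prkch (9.74%).

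Meclizine, an antihistamine, had 0 members lost (1.37%), 0 gained (2.46%), 0 at least 10 points higher (4.18%) and 0 at least 10 points lower (10.0%). Prkch was 6.31 points higher and Prkcz 6.12 points higher. Prkca was 8.33 points lower. Ranked among promoters marked in all 6 lists, Prkcz was 15.3 points higher (16.1% at least 10 points higher), and the other 4 members ranked stayed within 10 points. Prkch was the 1 member lost when a peak had to cover a start (2.58%).

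**Figure D4:**
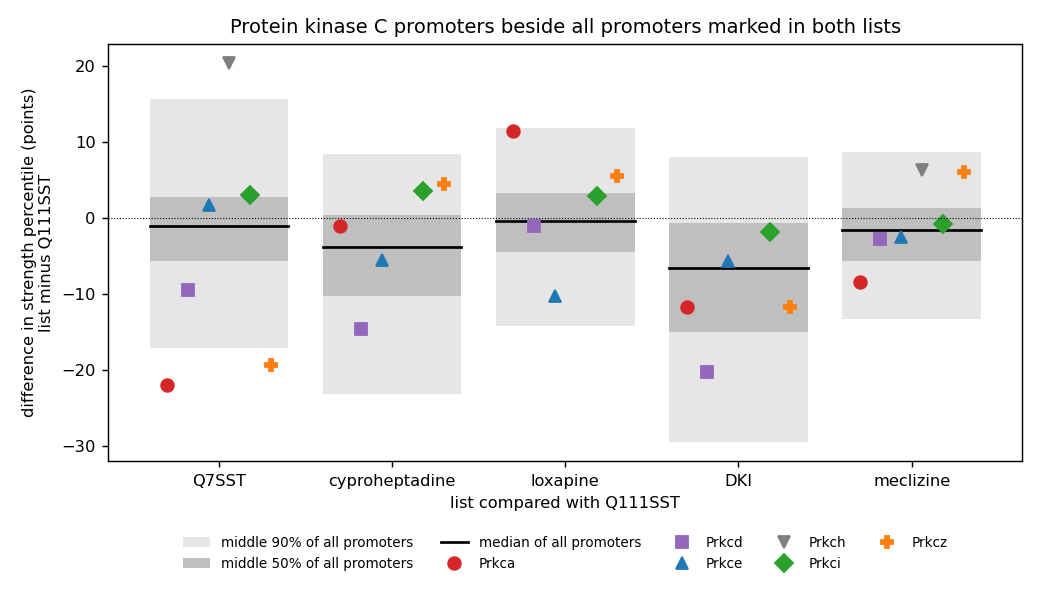
Difference in strength percentile from Q111SST (y axis, points) for each of the 5 other lists. Symbols are the protein kinase C genes marked in both lists, grey bands hold the middle 50% and 90% of all promoters marked in both, and black lines are their medians. Prkca, Prkch and Prkcz lie outside the 90% band in Q7SST, and every member lies inside it in the 4 compound lists.

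The CpG content of the promoters was then set beside the mark over all genes with sequence. Of 3002 promoters with 80 or more CpG in the 1 kb around the first start, 88.0% were marked in all 6 lists and 5.23% in none. Prkca, Prkcd, Prkci and Prkcz, with 94, 80, 87 and 103 CpG, were in this class and were marked throughout, whereas Prkcb, with 91, was also in it and was marked in no list. Of 2980 promoters with 40 to 59 CpG, the class of Prkcq, 79.4% were marked in all 6 lists and 11.4% in none. Among the members, CpG count did not order strength either, since Prkcz had more CpG than Prkci and a weaker peak in every list. Other motifs were less distinctive. A GC box, GGGCGG on either strand, was found before Prkca, Prkcd, Prkci and Prkcz and not before Prkcb or Prkcq, against 40.0% of promoters. Motifs were sought in the 250 bases before the first annotated start, which in Prkcb lies upstream of the first protein-coding start. A TATA box, read as TATAAA, and an E box, read as CACGTG, each occurred before Prkcd alone among the 6 members with sequence, against 11.3% and 6.71% of promoters.

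**Figure D5:**
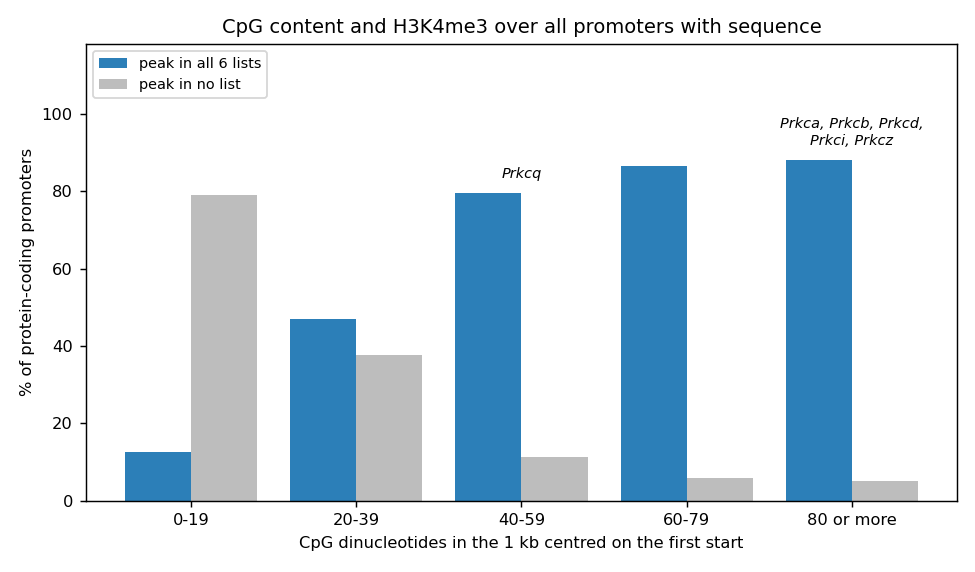
Share of protein-coding promoters (y axis, %) with an H3K4me3 peak in all 6 lists (blue) or in no list (grey), by the number of CpG dinucleotides in the 1 kb centred on the first start (x axis). Gene names mark the class of each protein kinase C member with sequence. The class of 80 or more CpG is marked in all 6 lists for 88.0% of promoters, and it contains both Prkca and the unmarked Prkcb.

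Genes around the kinases were examined as fixed lists. The 5 relatives, which are Prkd1, Prkd2 and Prkd3 of the protein kinase D family and Pkn2 and Pkn3 of the protein kinase N family, were marked in all 6 lists, beside 53.5% of all promoters. Over the 6 lists Prkd1 spanned 23.6 points and Prkd2 18.6 points, the widest ranges among these relatives. Relative to Q111SST, 2 of 5 relatives were at least 10 points lower in DKI, beside 38.8% of all promoters, and 2 in cyproheptadine, beside 25.9%.

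Of the 12 genes of phospholipases C, which make diacylglycerol, 7 were marked in all 6 lists, close to the 53.5% of all promoters. Plcb2 and Plch2 were marked in none, as were 37.0% of all promoters, and Plcb4 and Plcd4 in Q7SST only, at percentiles 56.1 and 48.2. Plcb1 was marked in 4 lists and not in cyproheptadine or DKI, with percentiles of 8.50 to 28.3. In DKI 4 of the 7 that could be compared were at least 10 points lower than in Q111SST (38.8% of all promoters), and 1 was at least 10 points higher (3.55%). By this measure, in Q7SST 2 of 8 were higher (8.85%) and 2 lower (13.0%). In cyproheptadine 0 of 7 were higher (3.48%) and 2 lower (25.9%). Loxapine had 3 of 8 higher (7.10%) and 0 lower (9.41%), and meclizine 1 of 8 higher (4.18%) and 1 lower (10.0%).

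The other receptors of diacylglycerol with a C1 domain, the RasGRP exchange factors, the chimaerins and the Munc13 proteins, were marked in all 6 lists for 4 of 9 genes, beside 53.5% of all promoters. Rasgrp4 was marked in none, Rasgrp2 in Q7SST only at percentile 65.5, and Rasgrp1 in 4 lists, not in cyproheptadine or DKI. Chn2 and Unc13c were absent from Q7SST and present in the 5 mutant lists. Chn1 was at 75.3 in Q7SST and 9.61 in DKI. In DKI, where 38.8% of all promoters were at least 10 points lower than in Q111SST and the whole list was shifted, 5 of the 6 that could be compared were. By this measure 0 of 6 were higher in DKI (3.55%). In Q7SST 2 of 5 were higher (8.85%) and 2 lower (13.0%). In cyproheptadine 1 of 6 was higher (3.48%) and 3 lower (25.9%). Loxapine had 0 of 7 higher (7.10%) and 1 lower (9.41%), and meclizine 1 of 7 higher (4.18%) and 1 lower (10.0%).

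Of the 13 regulators and anchors, 11 were marked in all 6 lists, beside 53.5% of all promoters. Akap5, an anchor of the kinases at synapses, was marked in none. Phlpp1, a phosphatase that removes an activating phosphate from these kinases, was marked in loxapine, DKI and meclizine only, at percentiles 60.8, 46.1 and 41.0. In DKI 4 of 11 were at least 10 points lower than in Q111SST, beside 38.8% of all promoters, and 1, Cavin3, was at least 10 points higher, at 47.0 against 32.4, beside 3.55%. By this measure, in Q7SST 1 of 11 was higher (8.85%) and 0 lower (13.0%). In cyproheptadine 0 of 11 were higher (3.48%) and 1 lower (25.9%). Loxapine had 1 of 11 higher (7.10%) and 0 lower (9.41%), and meclizine 0 of 11 higher (4.18%) and 2 lower (10.0%). Of the 9 substrates, 6 were marked in all 6 lists, again beside 53.5%. Gap43, a growth cone protein, and Ppp1r14a, an inhibitor of a phosphatase, were marked in 4 lists and not in cyproheptadine or DKI, and Add2 was absent from DKI only. In DKI 4 of the 6 substrates that could be compared were at least 10 points lower than in Q111SST, beside 38.8% of all promoters, and 1, Marcksl1, was at least 10 points higher, at 61.3 against 49.9, beside 3.55%. In Q7SST 3 of 9 substrates were higher (8.85%) and 0 lower (13.0%). In cyproheptadine 0 of 7 were higher (3.48%) and 1 lower (25.9%). Loxapine had 2 of 9 higher (7.10%) and 1 lower (9.41%), and meclizine 0 of 9 higher (4.18%) and 2 lower (10.0%). Gap43 was at 77.2 in Q7SST and between 25.9 and 48.2 in the mutant lists that held it.

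The labelled cell type was set beside markers, of which each count is to be read against the 53.5% of all promoters marked in all 6 lists and the 37.0% marked in none. Of 10 markers of neural or striatal progenitors, 6 were marked in all 6 lists, near that share, and none was absent from all. Sox2 was absent from Q7SST only, Nes from cyproheptadine only, and Gsx2 and Bcl11b were marked in Q7SST only. Of 6 markers of mature striatal projection neurons, 0 were marked in all 6 lists, and the dopamine receptor genes Drd1 and Drd2 were marked in none. Penk was marked in 5 lists, Ppp1r1b in 4, and Adora2a and Tac1 in Q7SST only, so that 4 of the 6 were marked in Q7SST (59.9% of all promoters) and 2 in Q111SST (58.4%). Of 5 T cell markers, Lck was marked in all 6 lists and Cd3e, Cd4, Cd28 and Zap70 in none, beside the unmarked Prkcq. Markers in all 6 lists numbered 0 of 4 for microglia, 1 of 3 for astrocytes (Slc1a3), 0 of 4 for oligodendrocytes, 2 of 4 for fibroblasts or mesenchyme (Col1a1 and Pdgfrb) and 1 of 3 for endothelium (Kdr). Whether cell composition had a part in the peaks of the protein kinase C genes was not tested.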

How the data were processed

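H3K4me3 ChIP-Seq with micrococcal nuclease digestion was represented by 6 peak lists, 1 per condition, grouped by the sample labels. The authors deposited each peak's position with a whole-number score, whose lowest value was 10 in each list and whose scale is not given in the sources used here. The submitters' processing notes name Trimmomatic 0.36, Bowtie2, SAMtools 1.3, MACS2 and mm10, without settings. Cells were treated in triplicate, but whether replicates were pooled is not given in the sources used here. Lists held 30758 to 45564 peaks, and read depth is unknown.

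Transcript starts came from the comprehensive GENCODE mouse annotation M21 on GRCm38 (mm10). The chromosome M was left out. In 0 of 21 chromosomes did a peak pass the end. The deposited score was converted to a percentile within its list, tied scores sharing their mean rank, because scores of lists need not share a scale. Gains, losses and differences of at least 10 points were counted against Q111SST. Sequences came from RefSeq GRCm38.p6, for 6 of the 8 members. Python 3.11.15, numpy 2.4.6, pandas 2.3.3 and pysam 0.24.0 were used. The search for peaks near starts was checked on simulated data.

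The members, gene lists and markers were chosen with earlier results of these data known. Named genes were all members; from each list the genes not marked in every list or the 3 of widest range; the 3 promoters most like the member of widest range; and genes sharing a member's peak. Some genes that this rule admits are given only in counts. A few listed genes are not reported here. The CCAAT count of Prkcz, Cavin3, Marcksl1 and Gm37520 were singled out after their values were seen. Alternatives were other windows, a score threshold, lists of equal size, joined peaks, coding starts only, other ranks and widths, and, chosen after seeing the data, the basic GENCODE set.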

Additional observations from a re-analysis of the deposited data

How the results depend on the processing

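The counts for the 8 members were recomputed under 7 alternatives. With protein-coding starts alone, the basic GENCODE set, a window of 5 kb or peaks within 1 kb joined, every count was unchanged. When a peak had to cover a start, 4 members were marked in Q7SST, 2 in cyproheptadine, 2 in loxapine, 4 in DKI and 5 in meclizine. Losses then numbered 2 in Q7SST (5.28% of all promoters covered in Q111SST), 4 in cyproheptadine (12.6%), 4 in loxapine (7.62%), 2 in DKI (9.74%) and 1 in meclizine (2.58%), members at least 10 points lower numbered 1 in Q7SST (12.2% of all promoters) and 0 in loxapine (9.86%), and members at least 10 points higher numbered 0 in loxapine (4.64%). With peaks scoring at least 47, the median score over all lists, losses in loxapine numbered 0 (3.05%), and members at least 10 points higher numbered 0 in Q7SST (20.7%), 2 in loxapine (20.4%) and 1 in meclizine (18.4%). Prkch was then marked in no list, the 1 loss in cyproheptadine (11.2%) and the 1 in DKI (11.4%) were Prkcd, and members at least 10 points lower in DKI numbered 2 (47.1%). With the strongest 30758 peaks of each list, 1 member, Prkch, was gained in Q7SST (8.25%), and losses numbered 0 in cyproheptadine (3.58%), loxapine (3.36%) and DKI (2.65%). Prkch was not marked in Q111SST at this cut, so it could be gained but not lost. Members at least 10 points higher then numbered 0 in Q7SST (12.1%) and 1 in cyproheptadine (10.1%), and members at least 10 points lower numbered 0 in cyproheptadine (17.2%) and DKI (21.5%). Fewer peaks, and hence fewer marked promoters, follow from how these last alternatives are built. Percentiles moved in 26 of 31 values with lists of equal size, in 28 of 28 above the pooled median and in 30 of 30 ranked among promoters marked in all 6 lists, because the set ranked differs. A percentile counted as moved when it left a binomial interval around its main value, set by the number of peaks in the list. That interval is narrow, and small shifts count, such as Prkci in cyproheptadine from 94.3 to 93.7 with lists of equal size. Widths changed in 4 values with joined peaks and in 6 with all peaks of the window summed. No paired analysis was possible because there was 1 list for each condition, and for the same reason no list could be left out in turn. Depth in reads is unknown.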
